A study of Homo sapiens with 16 samples.

Results

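The D-type cyclins CCND1, CCND2 and CCND3, their kinases CDK4 and CDK6, and the inhibitors CDKN1A, CDKN1B, CDKN2A, CDKN2B and CDKN2C make up a set of 10 genes that govern entry into the cell cycle. Regions of changed H3K27ac, the histone H3 lysine 27 acetylation found at active promoters and enhancers, were taken for each gene when any base lay in the gene body or within 100 kb of its 5′ end. This gave 19 regions out of the 7130 listed in hg38, of which 6 had lost and 13 had gained H3K27ac. The genes were taken by name and the regions by position. H3K27ac had been profiled by ChIP-seq, that is, sequencing of immunoprecipitated chromatin. The cells were LX-2, a line of human hepatic stellate cells that behave as myofibroblasts, grown with 5% fetal bovine serum. The control arm received the vehicle DMSO and the treated arm 50 µM OSMI-1 for 24 h, with 4 H3K27ac libraries in each. OSMI-1, called OGTi below, blocks OGT, the transferase that attaches O-GlcNAc to nuclear and cytosolic proteins. The other 8 of the 16 samples, input DNA and column purified chromatin libraries, were not analysed here. All libraries came from a single cell line, and stellate cell markers could not be checked, since only the positions of changed regions were used here. These hold no signal, fold change or replicate value, so neither the size of a change nor its spread over the 4 replicates can be given, and counts are descriptions without a test.

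D-type cyclins accumulate in response to growth factors and activate CDK4 and CDK6, which phosphorylate the retinoblastoma protein (RB) and thereby release E2F transcription factors for S-phase entry. Inhibitors of the INK4 family (p16 from CDKN2A, p15 from CDKN2B, p18 from CDKN2C) bind CDK4 and CDK6 and keep cyclin D out, whereas the CIP/KIP proteins p21 (CDKN1A) and p27 (CDKN1B) bind assembled cyclin and kinase complexes. In injured liver, stellate cells leave quiescence, proliferate and deposit matrix, and cell-cycle inhibitors take part in ending that response.

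Gained regions alone were listed at CCND1 (3), CDK6 (4), CDKN1A (1) and CDKN1B (3), and lost regions alone at the INK4 genes CDKN2A and CDKN2B (2 each), while CCND3 and CDK4 had both. Of the 10 genes, 4 thus had only gained regions, 2 only lost regions and 2 both, and the remaining 2, CCND2 and CDKN2C, had neither. Gained regions were found at 6 of the genes, where 30.5% of all 20046 protein-coding genes had one by the same rule. That background was not restricted by gene length or to genes active in LX-2 cells, and 55.1% of it had neither kind of region. Lost regions were found at 4, against 21.6% of protein-coding genes. With 10 genes, these counts are small, and 1 lost region was shared by the neighbours CDKN2A and CDKN2B. Within 2500 bp of the 5′ end, 3 genes had a gained region (CCND1, CCND3 and CDK6) and 0 a lost one, whereas 6.39% and 2.02% of protein-coding genes did. Lost regions made up 31.6% of the 19 regions and 49.2% of all listed regions. The gained regions covered 21.5 kb and the lost ones 12.1 kb. A member gene body was touched by 7 of the 13 gained regions and by 0 of the 6 lost regions. The protein-coding gene with the nearest transcription start site (TSS) was the member itself for 7 gained and 3 lost regions, so that the other regions lay closer to the start of another gene.

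**Figure D1:**
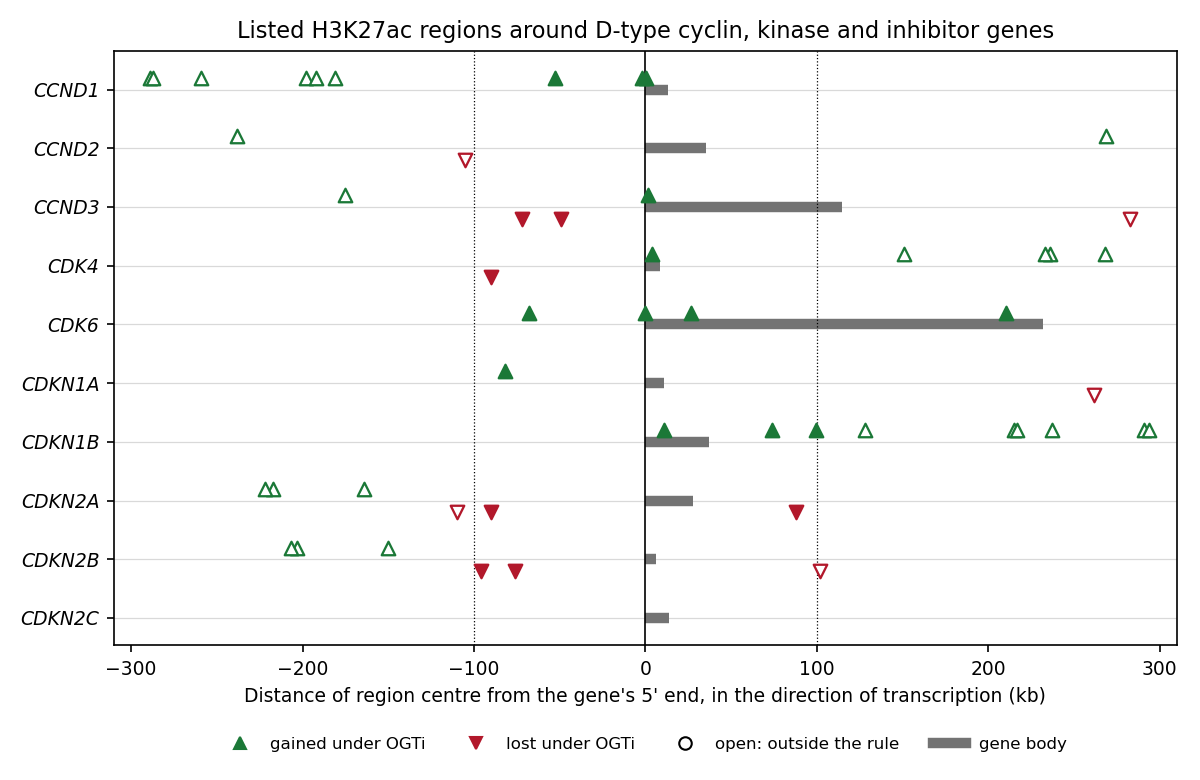
Listed H3K27ac regions around the 10 genes, with the distance of the region centre from the gene's 5′ end in kb on the x axis (negative upstream, dotted lines at 100 kb). Green triangles are gained and red triangles lost regions, filled symbols meet the rule (13 gained, 6 lost, with 1 lost region drawn at both CDKN2A and CDKN2B), open symbols lie beyond it, and grey bars are gene bodies; CCND1, CDK6 and CDKN1B carry gained regions and no lost ones over the whole span.

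CCND1 encodes cyclin D1, the D-type cyclin most tightly coupled to mitogen and adhesion signals. The gene lies on the plus strand of chromosome 11 (chr11:69641156-69654474, 13.3 kb) and had 3 gained regions and 0 lost ones. As many gained regions were found at 3.79% of protein-coding genes (760 genes). The nearest lost region lay 565 kb away. A gained region of 1408 bp (chr11:69640558-69641965) covered the 5′ end, from 598 bp upstream to 809 bp downstream. Another of 1314 bp (chr11:69638354-69639667) ended 1489 bp upstream of it, and the remaining one of 2127 bp (chr11:69587094-69589220) was centred 53 kb upstream in intergenic sequence. CCND1 was the nearest protein-coding gene for all 3. The promoter pair was GC-rich, with 62.6% and 62.9% G and C and CpG observed/expected ratios of 0.807 and 0.717. The distal region had 46.1% and 0.233, so that promoter-type and CpG-poor sequence both gained H3K27ac at this gene. The 250 bases just upstream of the 5′ end, wholly inside the gained promoter region, are shown for their matches to motifs of cell-cycle and growth factor pathways (chr11:69640906-69641155, plus strand). Capitals mark an E2F word (TTTGGCGC), a TCF/LEF word (CTTTGAT) and 2 adjacent SP/KLF words (CCGCCC, the reverse complement of GGGCGG).
CCND1 promoter, 250 bases upstream of the 5′ end: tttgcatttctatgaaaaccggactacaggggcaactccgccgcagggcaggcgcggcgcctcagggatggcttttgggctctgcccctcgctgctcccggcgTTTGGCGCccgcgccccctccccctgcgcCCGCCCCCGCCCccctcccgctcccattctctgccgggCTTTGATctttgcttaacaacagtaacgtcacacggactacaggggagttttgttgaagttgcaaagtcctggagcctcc

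E2F factors are the transcription factors held by RB, TCF/LEF factors the nuclear end of WNT signalling, and SP/KLF factors bind GC boxes of many promoters. Of 35116 RefSeq promoters read over 250 bases, 2.79% held an E2F word, 5.94% a TCF/LEF word and 42.6% an SP/KLF word. The CCND1 promoter region held the only E2F word among the 19 regions, and 7.15% of all gained regions had one. At the distal CCND1 region, 2 TEAD consensus words and 2 AP-1 words were found. TEAD factors are the DNA-binding partners of YAP1, and AP-1 factors are FOS and JUN dimers that act at many enhancers. The region was the only gained one of the 13 with a TEAD consensus word, where 27.5% of all gained regions had one. A stretch of it is shown because both motifs lie within 104 bases (chr11:69587843-69587946, plus strand, intergenic). Capitals mark the TEAD core on the minus strand (GGAATG, read as CATTCC) and an AP-1 word (TGACTCA).
CCND1 distal region, 53 kb upstream: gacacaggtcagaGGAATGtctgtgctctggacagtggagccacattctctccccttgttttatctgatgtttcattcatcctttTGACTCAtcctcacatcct

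CCND2 and CCND3 encode cyclins D2 and D3, which activate the same kinases and differ from cyclin D1 mainly in where they are expressed. CCND2 (chr12:4269771-4305353, plus strand, 35.6 kb) had 0 regions of either kind. Its nearest listed region was a lost one of 1407 bp (chr12:4164345-4165751), whose edge was 104 kb upstream and thus just beyond the limit of 100 kb. The nearest gained region lay 238 kb away. CCND3 (chr6:41934934-42050357, minus strand, 115 kb) had 1 gained and 2 lost regions. The gained region was short, at 321 bp (chr6:42048744-42049064), and was centred 1453 bp downstream of the 5′ end, with 225 bp in untranslated exon sequence and the start of another CCND3 transcript inside. It was also the most GC-rich of the 13 gained regions, at 67.0%. The 2 lost regions were both upstream of CCND3 and in the neighbouring gene C6orf132. A lost region of 2551 bp (chr6:42098316-42100866), 49.2 kb upstream of CCND3, lay wholly in untranslated exon sequence of C6orf132. The other, of 2207 bp (chr6:42120996-42123202), lay 71.7 kb upstream in an intron of C6orf132. That gene has the nearest protein-coding TSS to both, at 43029 and 20521 bp. The start of CCND3 in the RefSeq promoter table lies 111 kb downstream of the GENCODE 5′ end, and counted from there both lost regions were beyond 100 kb (159 and 182 kb), and the gained region stayed within the gene body 110 kb upstream. The opposite directions near CCND3 therefore rest on the upstream start of the gene. The intronic lost region is shown by its TEAD consensus word, here on the minus strand and in capitals (chr6:42121674-42121705, plus strand).
C6orf132 intron lost region, TEAD consensus: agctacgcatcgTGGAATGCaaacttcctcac

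CDK6 encodes a cyclin D kinase and had the most gained regions of the set. The gene (chr7:92604921-92836573, minus strand) is 232 kb long, against a median of 27.4 kb over protein-coding genes, so that its search window of 332 kb exceeded the usual 200 kb. It had 4 gained and 0 lost regions, and as many gained regions were found at 1.76% of protein-coding genes (353 genes). Without the gene body, 3 of the 4 remained. The nearest lost region was 323 kb away. A gained region of 1259 bp (chr7:92836284-92837542) covered the 5′ end, from 969 bp upstream to 289 bp downstream. A gained region of 2042 bp (chr7:92808897-92810938) was in an intron 26.7 kb downstream of the 5′ end, and another of 1381 bp (chr7:92625340-92626720) in an intron 211 kb downstream, near the end of the gene, where FAM133B has the nearest protein-coding TSS at 35637 bp. The region of 2810 bp upstream (chr7:92903238-92906047, centre 68.1 kb away) lay in the antisense gene CDK6-AS1 and was the longest of the 13. The promoter region had a GC content of 59.0% and a CpG ratio of 0.732. The 3 distal regions were AT-rich, with 32.5% to 37.4% G and C and CpG ratios of 0.138 to 0.239. The RefSeq start of CDK6 is 2.61 kb downstream of the 5′ end used here, and the promoter region ended 2325 bp upstream of it. The 250 bases upstream of the 5′ end (chr7:92836574-92836823, minus strand) are shown as the GC-rich kind of gained sequence, and a stretch of the intronic region (chr7:92809868-92809949, plus strand) as the AT-rich kind. Capitals mark 3 SP/KLF words in the former, and an AP-1 word (TGAGTCA) and a minus-strand TCF/LEF word (TTCAAAG, read as CTTTGAA) in the latter.
CDK6 promoter, 250 bases upstream of the 5′ end: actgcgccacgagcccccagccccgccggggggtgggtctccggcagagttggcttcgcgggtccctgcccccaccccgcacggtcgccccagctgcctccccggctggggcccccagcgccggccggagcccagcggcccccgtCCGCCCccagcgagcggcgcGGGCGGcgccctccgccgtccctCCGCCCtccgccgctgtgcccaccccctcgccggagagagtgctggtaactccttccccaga
CDK6 intron, 26.7 kb downstream: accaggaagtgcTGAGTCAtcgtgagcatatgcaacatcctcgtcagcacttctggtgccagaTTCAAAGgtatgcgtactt

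CDK4, the other cyclin D kinase, had 1 gained and 1 lost region. The gene (chr12:57747727-57756013, minus strand) is 8.29 kb long in a dense neighbourhood. The gained region of 1240 bp (chr12:57751242-57752481) lay inside CDK4, centred 4152 bp downstream of its GENCODE 5′ end, with 1112 bp in exons and 319 bp of coding sequence. Its nearest protein-coding TSS by gene 5′ ends was that of MARCHF9, at 3242 bp. It nevertheless covered the RefSeq start of CDK4 at position 57752310, which lies 3.70 kb inside the GENCODE gene. With the RefSeq start, CDK4 was therefore 1 of 3 genes with a gained region within 2500 bp, together with CCND1 and CDK6, and CCND3 was no longer so. The lost region of 2661 bp (chr12:57844444-57847104) was 89.8 kb upstream of CDK4 and lay over the promoter of CTDSP2, which encodes a small phosphatase, with its centre 955 bp from the TSS. This was the only lost region of the 6 within 2500 bp of a protein-coding TSS, and the only CpG-rich one, with a GC content of 66.5% and a CpG ratio of 0.663. It held a TEAD consensus word and an ATF4-C/EBP word, the site of the amino acid response factor ATF4. Both are shown in windows with 12 flanking bases, since the ATF4-C/EBP word was found in 4.36% of all lost regions, together with the TEAD core of the gained CDK4 region, where no longer consensus was found (plus strand, chr12:57845291-57845322, chr12:57844859-57844890 and chr12:57752137-57752166). Capitals mark the motif.
CTDSP2 lost region, TEAD consensus: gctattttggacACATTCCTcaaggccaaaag
CTDSP2 lost region, ATF4-C/EBP: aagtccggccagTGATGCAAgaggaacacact
CDK4 gained region, TEAD core: ggcactggttctCATTCCtgggaagggact

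The CIP/KIP genes CDKN1A and CDKN1B had 4 gained and 0 lost regions between them, and none lay within 2500 bp of a CDKN1A or CDKN1B 5′ end. CDKN1A encodes p21, which halts the cell cycle after DNA damage. Its gene (chr6:36676460-36687337, plus strand, 10.9 kb) had 1 gained region of 1592 bp (chr6:36593584-36595175). The region was 82.1 kb upstream and lay over the promoter of SRSF3, a splicing factor gene, with its centre 26 bp from the TSS and a CpG ratio of 0.768. No region was listed at the CDKN1A promoter, and the nearest lost region was 262 kb away. CDKN1B encodes p27, which accumulates in resting cells and whose gene is a known target of FOXO factors. The gene (chr12:12685498-12722369, plus strand, 36.9 kb) had 3 gained regions, as many as 3.79% of protein-coding genes, and its nearest lost region was 691 kb away. A gained region of 1105 bp (chr12:12695964-12697068) was centred 11 kb downstream of the GENCODE 5′ end. It overlapped 722 bp of CDKN1B exons and the start of a CDKN1B transcript. The TSS of GPR19, a receptor gene, was 309 bp from its centre. The RefSeq start of CDKN1B is 31.9 kb downstream of the GENCODE 5′ end and 20.3 kb from this region, and no listed region lay within 2500 bp of that start. The other 2 gained regions (chr12:12758078-12760331, 2254 bp, and chr12:12783881-12786572, 2692 bp) lay beyond the 3′ end in APOLD1, centred 73.7 and 99.7 kb downstream of the 5′ end. The latter straddled the limit of 100 kb from the GENCODE 5′ end and was nearer to the TSS of DDX47. From the RefSeq start, they were centred 41.8 and 67.9 kb downstream, and with that start CDKN1B had 4 gained regions within the rule. FOXO words (TGTTTAC) were found in 2 of the 3 CDKN1B regions and in 21.4% of all gained regions. The promoter sequence read just upstream of the RefSeq start of CDKN1B held 0 FOXO words. The regions with the words lay 20.3 and 40.7 kb from that start, with GPR19 and APOLD1 as the nearest protein-coding TSS. Regulation of CDKN1B by FOXO factors was not tested. The words are shown because the p27 gene is a known FOXO target (plus strand, chr12:12696690-12696720 and chr12:12758566-12758596). Capitals mark the word, which is on the minus strand in the latter (GTAAACA).
CDKN1B exonic gained region, FOXO: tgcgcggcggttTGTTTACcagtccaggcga
APOLD1 gained region, FOXO: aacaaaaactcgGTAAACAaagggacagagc

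CDKN2A and CDKN2B, neighbours on the minus strand of chromosome 9 (chr9:21967752-21995301, 27.6 kb, and chr9:22002903-22009305, 6.40 kb), had lost and no gained regions. CDKN2A encodes p16 and, in another reading frame, ARF. CDKN2B encodes p15, which is induced by TGF-beta in many cells. Each had 2 lost regions, as many as 8.42% of protein-coding genes (1687 genes), and they shared 1 of them, so that the locus had 3. None lay within 2500 bp of either 5′ end. The shared region of 2023 bp (chr9:22084083-22086105) was 89.8 kb upstream of CDKN2A and 75.8 kb upstream of CDKN2B. A lost region of 2382 bp (chr9:22104248-22106629) followed, 96.1 kb upstream of CDKN2B and, at 110 kb, just beyond the limit for CDKN2A. Both lay in introns of CDKN2B-AS1, the antisense long non-coding RNA known as ANRIL, and the nearest protein-coding TSS was that of CDKN2B. The remaining region was short, at 313 bp (chr9:21907334-21907646), 87.8 kb downstream of the CDKN2A 5′ end in an intron of MTAP, and had the lowest CpG ratio of the 19 regions, 0.0639. The RefSeq start of CDKN2A is 20.4 kb downstream of the GENCODE 5′ end, and counted from there the shared region was 109 kb away and the MTAP region 67.2 kb. The nearest gained regions lay 163 kb from CDKN2A and 149 kb from CDKN2B. The CDKN2B-AS1 regions are shown by their motif windows, because the shared one combined a TEAD consensus and an AP-1 word, and the other held 1 of the 2 ATF4-C/EBP words of the lost regions (plus strand, chr9:22085324-22085355, chr9:22084862-22084892 and chr9:22104814-22104845). Capitals mark the motif.
CDKN2B-AS1 shared lost region, TEAD consensus: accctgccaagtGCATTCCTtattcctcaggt
CDKN2B-AS1 shared lost region, AP-1: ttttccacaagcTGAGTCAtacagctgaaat
CDKN2B-AS1 distal lost region, ATF4-C/EBP: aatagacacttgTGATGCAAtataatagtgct

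CDKN2C, which encodes p18, had 0 regions of either kind (chr1:50960745-50974634, plus strand, 13.9 kb). Its nearest gained region was 596 kb and its nearest lost region 700 kb away. No other gene of the set was as far from a gained region. No change of H3K27ac was listed there, which does not say whether the mark was present, since unchanged regions were not used here. The same holds for CCND2, for the promoters of CDKN1A, CDKN2A and CDKN2B, and for CDKN1B at its GENCODE 5′ end and its RefSeq start.

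To place the 10 genes in their pathway, 3 further lists were counted by the same rule. Of 20 restriction point partners (RB and E2F family members, cyclin E and A genes, CDK2 and other inhibitors), 8 (40%) had a gained and 5 (25%) a lost region. Of 21 regulators of cyclin D synthesis, CDK activation and turnover, 8 (38.1%) had a gained and 5 (23.8%) a lost region, and of 14 mitotic cyclins and kinases, 5 (35.7%) and 4 (28.6%). The shares in the 10 genes were 60% and 40%, and those of all protein-coding genes 30.5% and 21.6%. Promoter-level gains were found in 30% of the 10 genes, 20% of the restriction point partners, 23.8% of the regulators and 0 of the 14 mitotic genes, against 6.39% of protein-coding genes, and promoter-level losses in 0, 5%, 4.76% and 0, against 2.02%. Among the binding partners downstream of CDK4 and CDK6, the pocket protein gene RBL1 had a gained region over its TSS, and RBL2 had 1 at 313 bp. E2F6 and E2F7, which encode repressive E2F proteins, had a gained region over the TSS and at 1419 bp. E2F7 had 7 gained regions in all and 0 lost ones. CDK2, the kinase of cyclin E, had 1 lost region, over its TSS, and 1 gained region farther away. The 4 lost regions of E2F4 were distal, the nearest 51389 bp from the TSS. CDKN1C, the remaining CIP/KIP gene, had 2 lost and 1 gained region.

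Of the regulators, MYC, a growth factor-induced activator of cell-cycle genes, had 4 gained regions, 3 of them within 2500 bp of the TSS, and 1 lost region. SKP2, which encodes the ubiquitin ligase subunit that targets p27 for degradation, had 5 lost regions and 0 gained ones, and 2 of the lost regions were within 2500 bp of the TSS. CKS1B, the cofactor of SKP2 in that reaction, had 2 gained regions, of which 1 lay over the TSS. FBXO31, encoding a ligase subunit for cyclin D1, had 2 gained regions near its TSS. A gained region over the TSS of CUL4A was closer to the TSS of another protein-coding gene. MNAT1, a subunit of the CDK-activating kinase, had 1 lost and 2 gained regions at a distance. Among the mitotic genes, PKMYT1 had 2 gained and 1 lost region, CCNB2 and CDC20 had 2 gained regions each, and CDC25B and WEE1, which encode a CDK-activating phosphatase and a CDK-inhibiting kinase, had 2 lost regions each, none of them within 2500 bp of the 5′ end of the gene.

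**Figure D2:**
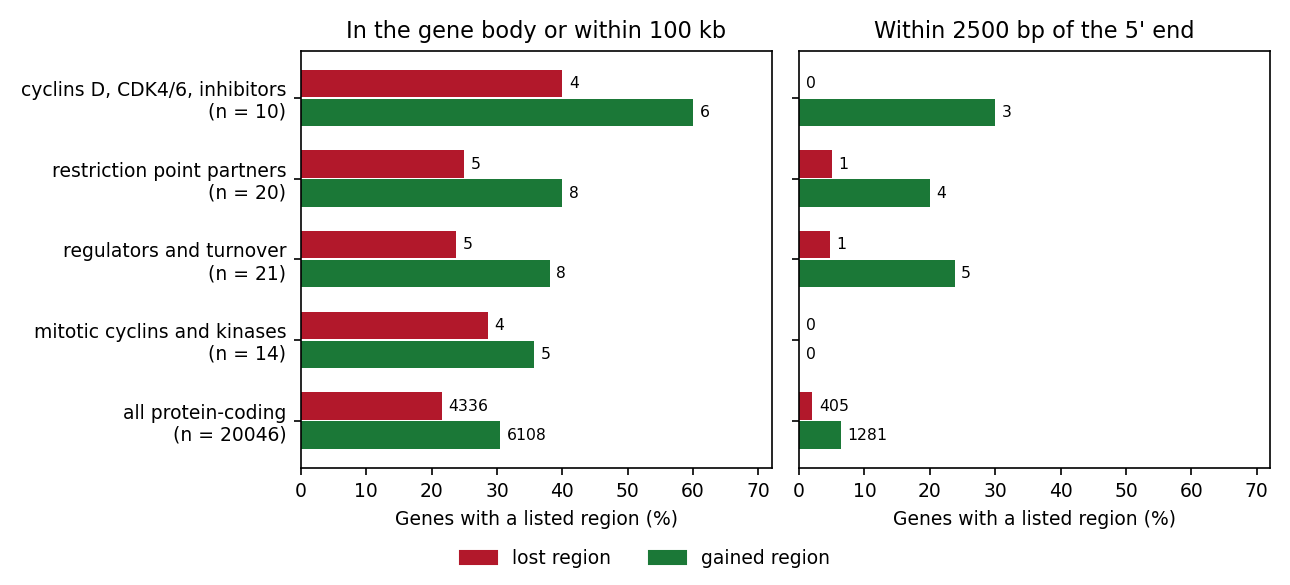
Share of genes (%, x axis) with a lost (red) or gained (green) region in the gene body or within 100 kb of the 5′ end (left) and within 2500 bp of it (right), for the 10 genes, 3 pathway lists and all 20046 protein-coding genes, with gene counts beside the bars. The 10 genes stand at 60% gained and 40% lost on the left, and at 30% (3 genes) and 0 on the right.

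The 13 gained regions fell into a CpG-rich and a CpG-poor set. A CpG ratio of at least 0.5 was found in 7 of them (53.8%), against 30.9% of all gained regions, and in 1 of the 6 lost regions (16.7%), against 8.35% of all lost regions. The 7 gained regions were the CCND1 promoter pair, the CCND3, CDK4 and CDK6 regions near a start of these genes, and the regions at the starts of SRSF3 and GPR19. Accordingly, 6 of the 13 (46.2%) lay within 2500 bp of a protein-coding TSS, against 31.0% of all gained regions, and 1 of the 6 lost regions (16.7%), against 11.3%. The CDK4 region was the CpG-rich one outside that distance. The median CpG ratio was 0.560 in the gained regions of the 10 genes and 0.247 in all gained regions, and 0.216 and 0.202 for lost regions. GC content differed less, with medians of 47.0% and 46.1% for gained and 49.4% and 46.8% for lost regions. The median width was 1408 bp in the 13 gained regions (1697 bp in all) and 2294 bp in the 6 lost regions (1905 bp in all). The narrowest were the CCND3 region of 321 bp and the MTAP region of 313 bp.

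**Figure D3:**
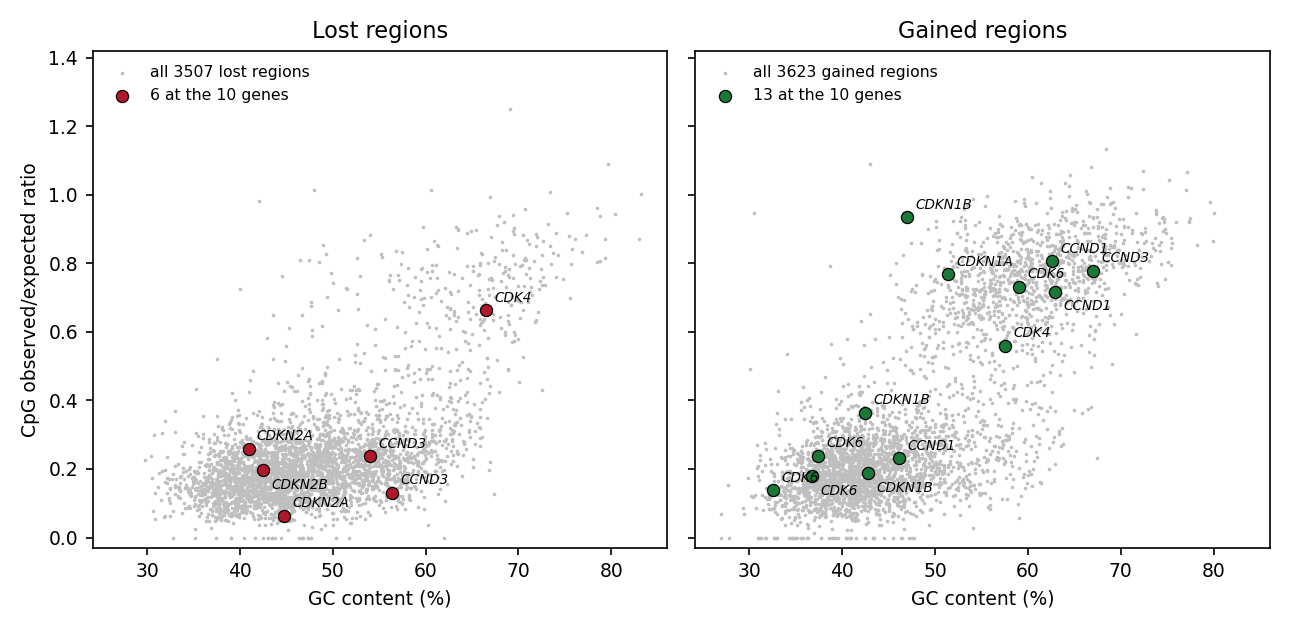
CpG observed/expected ratio (y axis) against GC content (%, x axis) of all 3507 lost (left) and 3623 gained (right) regions in grey, with the 6 lost and 13 gained regions of the 10 genes coloured and named by gene. The gained regions split into 7 with a ratio of at least 0.5 and 6 below it, and of the lost regions that of CDK4, over the CTDSP2 promoter, is at 0.663.

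Sequence motifs were counted on both strands of each region, as matches of fixed words. The TEAD core (CATTCC, which the longer TEAD consensus words ACATTCCA, ACATTCCT, GCATTCCA and GCATTCCT contain) was found in 5 of 13 gained regions (38.5%, Wilson 95% interval 17.7 to 64.5%), against 58.8% of all gained regions, and in 4 of 6 lost regions (66.7%, 30 to 90.3%), against 73.5%. The longer consensus was found in 1 gained (7.69%) and 3 lost regions (50%), against 27.5% and 42.9%. The 4 intervals of the TEAD shares (1.37 to 33.3% and 18.8 to 81.2% for the consensus), which cover counting error only, included the shares over all regions. With 13 and 6 regions they are wide, so this does not show that the shares are equal.

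The consensus words of the lost regions were in the CDKN2B-AS1, CTDSP2 and C6orf132 introns, that is, in 1 region each of the CDKN2A and CDKN2B locus, CDK4 and CCND3. AP-1 words (TGACTCA and TGAGTCA) were found in 5 gained regions (38.5%), against 39.6% of all gained regions, and in 3 lost regions (50%), against 42.6%. All 3 distal CDK6 regions held an AP-1 and a TCF/LEF word (CTTTGAA or CTTTGAT). TCF/LEF words occurred in 6 gained (46.2%) and 2 lost regions (33.3%), against 40.2% and 43.8%. SP/KLF words (GGGCGG) occurred in 8 gained (61.5%) and 5 lost regions (83.3%), against 42.9% and 33.9%, with 12 matches in the CTDSP2 promoter region alone. Their Wilson 95% intervals were 35.5 to 82.3% and 43.6 to 97%. These cover counting error only and take the regions as independent, although the lost regions in C6orf132 are neighbours, as are those in CDKN2B-AS1. The ATF4-C/EBP word (TGATGCAA) was found in 2 of 6 lost regions (33.3%, Wilson 95% interval 9.68 to 70%) and in 4.36% of all lost regions, whereas 0 of 13 gained regions and 10.1% of all gained regions held it. Since 10 motifs were searched in regions of unequal width and base composition, such gaps are given as descriptions. FOXO words were found in 3 gained regions (23.1%), those of CDKN1B and CCND3, and in 0 lost regions, against 21.4% and 20.3%. E2F words (TTTCCCGC, TTTCGCGC, TTTGCCGC or TTTGGCGC) occurred in 1 gained and 0 lost regions, and an SRF match in 1 lost region of CCND3. No motif word was found in the CDKN1B region 99.7 kb downstream or in the MTAP region.

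**Figure D4:**
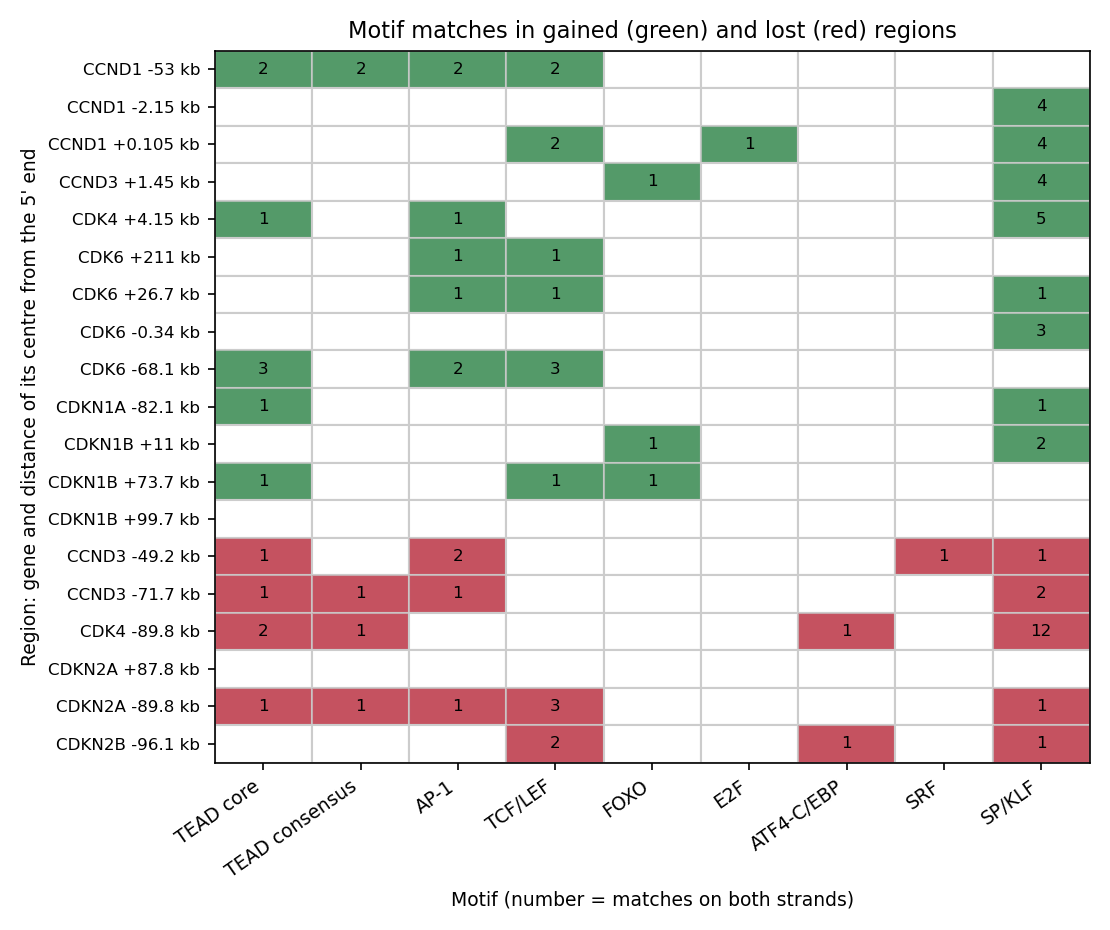
Number of motif matches on both strands (cell values) in each of the 13 gained (green) and 6 lost (red) regions, named by gene and by the distance in kb of the region centre from the 5′ end, with motifs on the x axis and the region shared with CDKN2B stands under CDKN2A. TEAD consensus words are in 1 gained and 3 lost regions, and SP/KLF words in 8 and 5.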

How the data were processed

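H3K27ac ChIP-seq libraries of LX-2 cells (4 per arm) had been sequenced as single-end reads and aligned to hg38 with Chromap, and peaks had been called per library against input with MACS2 (v2.1.1.20160309). The authors then compared both arms with MAnorm2, which divides wide peaks into bins. They deposited 2 lists of positions with 3 columns (chromosome, start, end) and no signal, fold change or p-value. The names of the lists carry an adjusted p threshold of 0.15, and the methods name a stricter one. Read depth is unknown.

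Starts were converted to count from 1. Genes and their 5′ ends came from GENCODE release 44, RefSeq starts (8 of the 10 genes matched) from the GRCh38.p14 promoter table, and sequences from hg38, and were read with Python 3.11.15, pysam 0.24.0 and numpy 2.4.6. Wilson 95% intervals were computed with scipy 1.17.1. The counting rule was checked on simulated regions. The genes and lists were chosen with earlier results of these data known. Named were all 10 genes with every region, and of each pathway list the genes with a region within 2500 bp of the TSS and the 3 with the most regions. CDC25B and WEE1, which tied with CCNB2 and CDC20, were added after their values were seen. An item that this rule selects is not reported here. Other distances, starts and overlaps were tried as alternatives. The input and CoP-seq libraries, the predicted enhancer links of the study and unchanged regions were not used here.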

Additional observations from a re-analysis of the deposited data

How the results depend on the processing

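No paired analysis was possible because the region lists used here hold positions alone, without a value per library. For the same reason, no replicate could be left out and the depth behind a region is unknown. Of 60 alternative values, 33 were classed as near the value given and 27 as moved. The former class was wide. It took in a change from 6 to 4 lost regions with RefSeq starts and from 6 to 8 genes with a gained region within 200 kb. Within 50 kb, 1 lost and 8 gained regions were left of 6 and 13, with a lost region at 1 gene instead of 4. Within 200 kb, 7 lost and 20 gained regions were found, at 5 and 8 genes. Within 2500 bp of the 5′ end without the gene body, 0 lost and 4 gained regions were left, at 0 and 3 genes. RefSeq starts, chosen after seeing the data, gave the same counts at that distance (0 and 4 regions, 0 and 3 genes), with CDK4 in place of CCND3, and 4 lost and 14 gained regions at 100 kb. When each region was given to the gene with the nearest protein-coding TSS alone, 3 lost regions at 2 genes and 7 gained regions at 3 genes were left. Of the CDKN1B gains, 1 stayed within 50 kb of the GENCODE 5′ end, inside the gene body, while that of CDKN1A did not. From the RefSeq start of CDKN1B, its gained regions were centred 20.9, 41.8 and 67.9 kb away. The cause was not tested.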

Other observations

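Between the limit of 100 kb and 300 kb from the 5′ end, further regions were listed around several of the 10 genes. CCND1 had 6 more gained regions and 0 lost ones, 180.6 to 287.8 kb upstream by their nearer edge, so that 9 gained and 0 lost regions lay within 300 kb. All 6 had MYEOV as the nearest protein-coding TSS, at 57902 to 166148 bp, and 2 of them abutted. CDKN1B likewise had 6 more gained regions and 0 lost ones, among them 1 at the DDX47 promoter and 2 in GPRC5A. It also reached 9 and 0, but was not the nearest protein-coding gene for any of the 9. The nearest protein-coding TSS was that of DDX47, GPRC5A, GPRC5D or HEBP1 for the 6, and of GPR19, APOLD1 or DDX47 for the others. The GPRC5A pair abutted. At least 9 gained and 0 lost regions within this distance or in the gene body were found at 74 of 20046 protein-coding genes (0.369%). The counts of CCND1 and CDKN1B themselves set this bar, and abutting regions were counted separately, so the share is a description only. Around CDK4, 4 more gained regions were found. Of these, 2 abutted at DDIT3, the gene of a stress-induced C/EBP family factor, at 234.8 and 232.1 kb. The former was centred in DDIT3, and the latter in MBD6 with DDIT3 as the nearest protein-coding TSS. At CDKN2A and CDKN2B the direction was mixed at this range, with 3 gained regions 148.9 to 207.2 kb upstream of CDKN2B, past the lost regions in CDKN2B-AS1, so that 3 lost and 3 gained regions lay within 300 kb. At least as many of both kinds were found at 3.02% of protein-coding genes. CCND2 had 1 lost and 2 gained regions, of which 1 lay at the start of RAD51AP1. CCND3 had 1 lost and 1 gained region more, and CDKN1A 1 lost region, while CDK6 and CDKN2C had none. These regions were chosen after their positions were seen.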
